A study of Drosophila melanogaster with 8 samples.

Results

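The genes described here are 10 Drosophila genes that set up the apical and basal sides of epithelial cells and hold their junctions together: sdt, crb, kst, arm, shg, dlg1, scrib, l(2)gl, baz and par-6. They were chosen by FlyBase symbol from the 15438 genes of each of 4 deposited RNA-seq tables, and all 10 were found and passed the filter on low values. RNA came from S2 cells, a line derived from late embryos that resembles macrophage-like hemocytes and not an epithelium. In the first experiment, S2 lines made by stable transfection with pUWG vectors and a neomycin resistance gene, and taken as G418-resistant colonies, expressed wild-type or mutant Beaf. Each genotype has 3 libraries, numbered here by the deposited table that holds them. BEAF-32 is an insulator protein that binds near promoters; the labels describe neither the mutation nor the promoter that drives the introduced gene, and nothing in them says that the endogenous gene was removed or whether colonies were pooled. In the second experiment, 1 S2 library is labelled as CTCF knockdown (400 µg of double-stranded RNA, harvest after 5 days) and 1 as its control, whose treatment is not described. Nothing says that the triplicates came from separate lines or cultures, so genotype and other differences between lines cannot be told apart, and p-values measure only the spread between these libraries, which may be technical.

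Epithelial polarity rests on groups of proteins that exclude each other along the cell membrane. The Crumbs complex (the transmembrane protein Crumbs, encoded by crb, and its scaffold Stardust, encoded by sdt) and the Par complex (Bazooka, the fly Par-3, with Par-6 and aPKC) mark the apical side. The Scribble group (Scribble, Discs large and Lethal giant larvae) marks the basolateral side, and DE-cadherin (shg) with beta-catenin (Armadillo, arm) forms the adherens junctions between them. Karst (kst) is the heavy beta-spectrin of the apical membrane skeleton, which binds Crumbs. S2 cells grow as single, loosely attached cells, and they are a common host for testing whether an introduced cadherin makes cells adhere.

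Gene values summed to between 1544063 and 2122627 per library of the Beaf lines. Of all reads, 94.0%, 91.7% and 91.3% fell outside annotated features in wild-type libraries 1 to 3. In mutant libraries 1 to 3 these shares were 85.6%, 87.4% and 87.4%. Reads not aligned made up 0.79%, 3.3% and 3.5% in wild type and 10.4%, 7.6% and 7.6% in the mutant. Both shares separate the genotypes, so library make-up and genotype cannot be told apart in any comparison of them. The CTCF control held 10963743 gene reads and the knockdown 9267319. In these libraries 8.05% and 6.93% of all reads fell outside features, and 18.4% and 45.1% did not align. Levels are given as CPM, a library's value for a gene scaled to a common total over its gene rows. In each genotype the library numbered 1 differed from the other two. Mutant library 1 had rank correlations across genes of 0.759 and 0.763 with the other mutant libraries, which correlated at 0.982 with each other. BEAF-32 RNA, from the endogenous and introduced genes together, stood at 1228, 1613 and 1929 CPM in the mutant libraries and at 469 and 676 CPM in wild-type libraries 2 and 3. The first library labelled wild type held 25.0 CPM, below the 58.3 CPM of the CTCF control, and is called wild-type library 1 by its label only. Of 12566 genes above 0 in at least 1 Beaf library, 52.9% were highest in mutant library 1 and 25.2% lowest there. Markers of several cell types were among those highest there: 8 of 10 epithelial, 6 of 9 neuronal, 5 of 7 muscle, 3 of 5 gonadal and 5 of 6 fat body markers, but 2 of 12 hemocyte markers. The epithelial markers summed to 413 CPM in it, 143 CPM of this from Fas3, against 119 to 151 CPM in the other 5. For this reason each comparison of genotypes is given with all 6 libraries and with libraries 2 and 3 of each genotype alone.

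All 10 genes were detected in every library, and their levels spanned a wide range. Per kilobase of exon, in the wild-type Beaf libraries, kst stood highest at 154 ± 12.9 CPM per kb (SD, n = 3). It was followed by arm at 83.4 ± 6.46 and l(2)gl at 74.6 ± 3.25 CPM per kb (SD, n = 3), whose ranges overlapped. The next were par-6 at 26.9 ± 0.457, baz at 22.5 ± 1.24, dlg1 at 19.0 ± 0.0244 and scrib at 14.5 ± 0.827 CPM per kb (SD, n = 3), with no overlap between neighbours. The Crumbs pair and the cadherin were the scarcest, with crb at 2.49 ± 1.40, shg at 1.55 ± 0.380 and sdt at 1.48 ± 0.843 CPM per kb (SD, n = 3), and these 3 overlapped. In the CTCF control, from a separate table, the order differed: arm led at 160 CPM per kb and l(2)gl followed at 80.1, while kst was at 26.6 and baz at 4.32 CPM per kb. DE-cadherin was the lowest of the 10 there, at 1.24 CPM per kb. In the CTCF control 8.05% of reads fell outside features, against 91.3% to 94.0% in the wild-type Beaf libraries. What this difference does to the order of levels was not tested. Exon lengths come from the BDGP6.54 annotation, in which 8 of the 10 genes share no exon base with another gene, while arm shares 2.3% and baz 0.0276% of exon bases with a gene on the other strand.

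**Figure D1:**
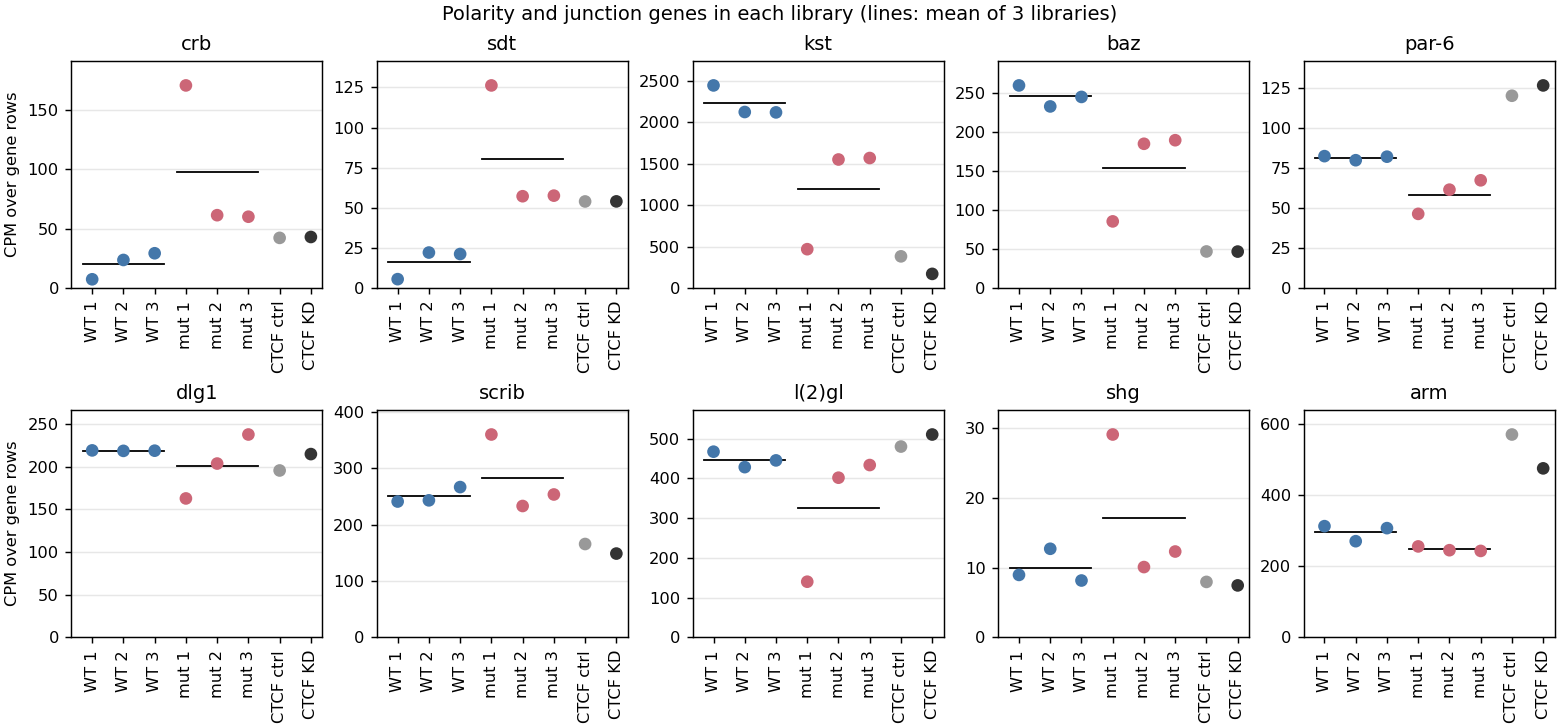
Level of each of the 10 genes in each library, in CPM over gene rows on a linear axis from 0; blue points are wild-type Beaf, red points mutant Beaf, grey the CTCF control and black the CTCF knockdown, and lines are means of 3 libraries. In crb and sdt every mutant point lies above every wild-type point, in kst, baz and par-6 every mutant point lies below, and in l(2)gl mutant library 1, at 140 CPM, lies far below the other 5 Beaf libraries.

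Both Crumbs complex genes among the 10, sdt and crb, were higher in mutant Beaf cells. Stardust RNA (sdt, FBgn0261873, on X from 8178549 to 8240474 in BDGP6.54) was at 5.65, 22.2 and 21.3 CPM in wild-type libraries 1 to 3 and at 126, 57.3 and 57.6 CPM in mutant libraries 1 to 3. The genotypes did not overlap, and wild-type library 1 was the lowest and mutant library 1 the highest of the 6. Crumbs RNA (crb, FBgn0259685, on 3R from 24295078 to 24314541) had the same order, at 7.54, 23.8 and 29.5 CPM in wild type and 170.8, 61.5 and 60.2 CPM in the mutant. The lowest values rest on few reads, 10 for sdt and 13 for crb in wild-type library 1 after the authors' rescaling was undone. Over libraries 2 and 3, sdt rose 2.55-fold (log2 fold change 1.35, SE 0.17, limma's adjusted p = 2.08e-05) and crb 2.24-fold (1.16, SE 0.17, limma's adjusted p = 7.185e-05). Between the libraries numbered 1 the mutant over wild-type ratio of CPM was 22.3 for sdt and 22.7 for crb, against 2.04 to 2.71 in the tables after it. These ratios only set libraries of the same number side by side, as they are not taken as pairs. With all 6 libraries the log2 fold changes were 2.37 (SE 0.57) for sdt and 2.27 (SE 0.61) for crb, and neither passed limma's threshold (adjusted p = 0.214 for each).

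Hemocyte marker RNA moved in the same direction as the Crumbs pair. Among libraries 2 and 3, limma called 9 of 11 tested hemocyte markers higher and 0 lower, where 9.34% of all genes were called higher; edgeR called 9 and DESeq2 6. The scavenger receptor gene crq had a log2 fold change of −0.23 (limma's adjusted p = 0.130). The 12 matched markers summed to 3645 and 3926 CPM in libraries 2 and 3 of the wild type and to 7830 and 7765 CPM in those of the mutant. The same sum was 1339 CPM in wild-type library 1, the lowest of the 6, and 5283 CPM in mutant library 1. Of the defining hemocyte markers, NimC1 and NimB5 were at 0 in wild-type library 1, and lz was at 0 in wild-type library 3. The part of these markers in the rise of sdt and crb was not tested. In bulk RNA, fewer cells of a type and less RNA per cell cannot be told apart. Of 10 epithelial markers only 5 passed the filter in libraries 2 and 3, where limma called none higher and ovo lower (log2 fold change −0.59, adjusted p = 0.00848). Of these 5, 4 had a log2 fold change above 0, and the median was 0.37, beside −0.01 over all genes tested. The summed level of all 10 was 145 and 137 CPM in wild type and 151 and 119 CPM in the mutant, with vvl at 0 in all 4 of these libraries. Within that sum ovo held 90.5 and 74.6 CPM in wild type and 61.5 and 47.9 CPM in the mutant. Of the markers of other cell types, limma called 3 of 4 tested neuronal, 3 of 4 muscle, 2 of 3 gonadal and 2 of 3 fat body genes higher in the mutant and 0 lower. DESeq2 called 1, 2, 0 and 2 genes of these lists. Among the neuronal calls of limma is CadN, which is also on the adherens junction list below.

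Karst RNA, the apical spectrin, was lower in the mutant. It was at 2446, 2125 and 2121 CPM in wild-type libraries 1 to 3 and at 471, 1553 and 1571 CPM in mutant libraries 1 to 3 (kst, FBgn0004167, on 3L from 3336860 to 3368133). The groups did not overlap, and mutant library 1 lay far below the rest. Over libraries 2 and 3 kst fell 1.36-fold, with a log2 fold change of −0.45 (SE 0.06, limma's adjusted p = 4.90e-05). With all 6 libraries the log2 fold change was −1.03 (SE 0.40, limma's adjusted p = 0.241). Partners of the apical spectrin skeleton were not called: alpha-Spec, its alpha subunit, had a log2 fold change of −0.18 in libraries 2 and 3 (limma's adjusted p = 0.0812), and the membrane linker Moe had −0.08 (limma's adjusted p = 0.464).

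Of the Par complex, baz fell in libraries 2 and 3, while par-6 missed the threshold. Bazooka RNA (baz, FBgn0000163, on X from 17160006 to 17200728) was at 259, 232 and 244 CPM in wild type and at 85.4, 184.5 and 189 CPM in the mutant. It fell by 0.35 on the log2 scale in libraries 2 and 3 (SE 0.08, limma's adjusted p = 0.00530), a call that DESeq2 did not make (adjusted p = 0.394). Par-6 RNA (par-6, FBgn0026192), which encodes the adaptor of aPKC, was at 82.4, 79.9 and 82.1 CPM in wild type and at 46.4, 61.5 and 67.4 CPM in the mutant. Its genotypes did not overlap either, but its log2 fold change of −0.33 (SE 0.12) missed limma's threshold in libraries 2 and 3 (adjusted p = 0.0758), with a 95% interval from −0.58 to −0.08. With all 6 libraries the log2 fold changes were −0.71 (SE 0.26) for baz and −0.43 (SE 0.15) for par-6, with limma's adjusted p of 0.230 and 0.220.

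The Scribble group showed no difference that passed the test. Discs large RNA (dlg1, FBgn0001624) was at 219, 218.5 and 219 CPM in wild type and at 163, 204 and 238 CPM in the mutant, so the mutant libraries lay on either side of the wild type. Scribble RNA (scrib, FBgn0263289) was at 241, 243 and 266 CPM in wild type and at 360, 233 and 253 CPM in the mutant. Lethal giant larvae RNA (l(2)gl, FBgn0002121) was at 467, 428 and 445 CPM in wild type and at 401 and 433 CPM in mutant libraries 2 and 3, but at 140 CPM in mutant library 1. In libraries 2 and 3 the log2 fold changes were 0.01 for dlg1, −0.07 for scrib and −0.07 for l(2)gl, with 95% intervals from −0.18 to 0.19, −0.24 to 0.10 and −0.22 to 0.08 (limma's adjusted p = 0.972, 0.633 and 0.588). With all 6 libraries scrib had a log2 fold change of 0.21 and dlg1 of −0.08 (limma's adjusted p = 0.602 and 0.739), so the sign differed between the fits for both genes.

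Of the adherens junction genes, arm fell slightly in libraries 2 and 3 and shg was not called. Armadillo RNA (arm, FBgn0000117), which also serves Wnt signalling, was at 313, 271 and 308 CPM in wild type and at 256, 246 and 244 CPM in the mutant. The groups did not overlap in CPM, but they did after TMM scaling. Over libraries 2 and 3 arm fell by 0.24 on the log2 scale (SE 0.08, limma's adjusted p = 0.0454), just inside the threshold, and the call was lost without wild-type library 3 (adjusted p = 0.279), mutant library 2 (0.122) or mutant library 3 (0.124). DE-cadherin RNA (shg, FBgn0003391) was at 8.95, 12.7 and 8.15 CPM in wild type and at 29.1, 10.1 and 12.3 CPM in the mutant. Only mutant library 1 stood out, and in libraries 2 and 3, with 13 to 19 reads each, the log2 fold change of 0.11 had a 95% interval from −0.55 to 0.78 (limma's adjusted p = 0.857).

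**Figure D2:**
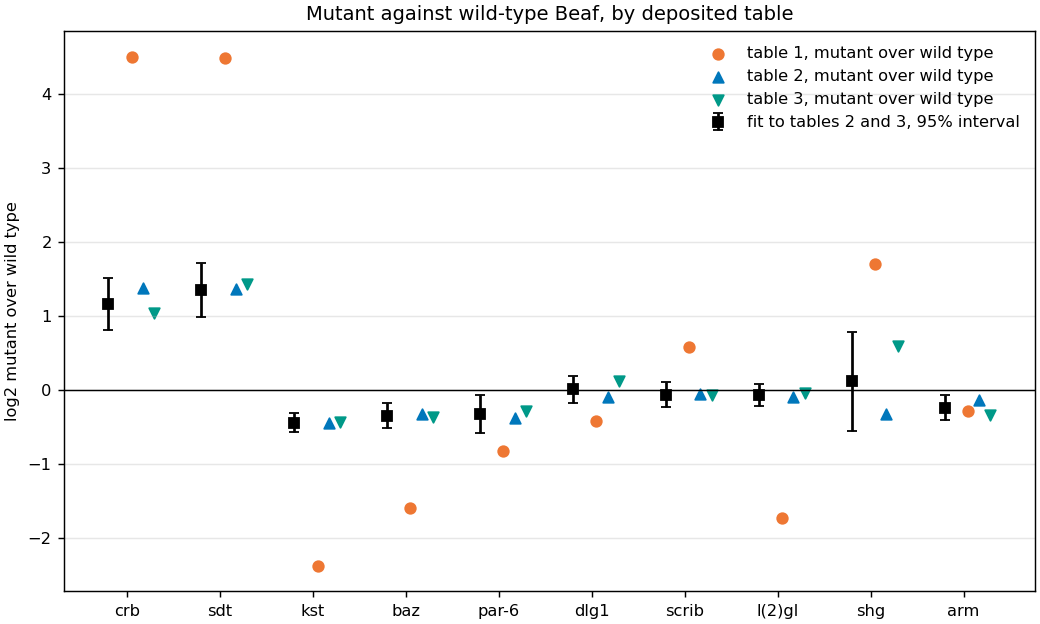
Log2 ratio of mutant over wild-type CPM for each gene in each of the 3 deposited Beaf tables (circles for the first, upward and downward triangles for the others), beside the limma estimate from libraries 2 and 3 with its 95% interval (squares). The first table lies farther from 0 than both others in 9 of the 10 genes, with arm as the exception, and the other two lie on either side of 0 in shg and dlg1. Libraries of the same table are not taken as pairs.

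In all, 5 of the 10 genes passed limma's threshold in libraries 2 and 3, where 14.7% of 6619 genes did. The 2 that rose compare with 9.34% of all genes, and the 3 that fell with 5.39%. At an unadjusted p of 0.05, 6 of the 10 passed, beside 28% of all genes. The median log2 fold change of the 10 was −0.07, beside −0.01 over all genes tested. With all 6 libraries limma called 0 of the 10 and 0% of 6564 genes; at an unadjusted p of 0.05 it gave 5 of the 10 (sdt, crb, kst, baz and par-6), against 19.4% of all genes. Of these 5, 2 were higher and 3 lower, beside 12.1% and 7.3% of all genes. EdgeR's quasi-likelihood test called 0 of the 10 and 0 of 6463 genes. DESeq2 called sdt and crb, among 220 of 6463 genes. Without mutant library 1, limma called 471 of 6732 genes. Among them were sdt (log2 fold change 1.92, adjusted p = 0.0462), kst (−0.54, adjusted p = 0.0366) and baz (−0.42, adjusted p = 0.0411).

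The genotypes did not overlap in 6 of the 10 genes (sdt and crb above, kst, arm, baz and par-6 below), beside 36% of all genes tested, 17.5% above and 18.4% below. An exact permutation test of 3 against 3 libraries gave p = 0.1 for each of these 6, the smallest it allows, and 0.2 to 0.7 for the other 4. The libraries also fell into a common order, noticed after the values were seen. It ran from wild-type library 1 through wild-type libraries 2 and 3 and mutant libraries 2 and 3 to mutant library 1. In it sdt and crb rose at each step and kst, baz and par-6 fell at each step. For par-6 the first step was very small, from 82.4 CPM (142 reads) to 79.9 and 82.1 CPM (122 and 131 reads). Of all genes tested, 9.96% rose in that order of libraries and 7.68% fell in it. In the same order the share of reads not aligned rose, from 0.79% in wild-type library 1 to 10.4% in mutant library 1. The share outside annotated features fell along it, from 94.0% to 85.6%. BEAF-32 RNA did not follow it, as mutant library 1, at 1228 CPM, was the lowest of the mutant libraries. What sets the order was not tested.

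Other polarity and junction genes were read from 4 lists. In libraries 2 and 3 limma called 9 of 44 tested genes, 7 higher and 2 lower, where 14.7% of all genes were called, 9.34% higher and 5.39% lower. DESeq2 called only ed and Fas2 of them. The adherens junction list had the most, with 5 of 10 higher and 0 lower and a median log2 fold change of 0.37. Echinoid (ed), an immunoglobulin-type adhesion protein, was at 100 and 95.3 CPM in wild type and 160 and 167 CPM in the mutant (1.665-fold, limma's adjusted p = 2.51e-05). Fasciclin 2 (Fas2), another immunoglobulin-type adhesion protein, rose 1.52-fold (limma's adjusted p = 3.86e-05), the tyrosine kinase gene Abl 1.35-fold (0.000470) and pyd, the fly ZO-1, 1.25-fold (0.00148). N-cadherin (CadN) was scarcer, at 10.6 and 16.3 CPM in wild type and 23.9 and 25.9 CPM in the mutant (1.815-fold, limma's adjusted p = 0.0299), and its call was lost without wild-type library 2 (adjusted p = 0.174), mutant library 2 (0.0629) or mutant library 3 (0.149). In wild-type library 1 and mutant library 1, which were left out, ed was at 53.7 and 212 CPM, Abl at 181 and 456 CPM, pyd at 716 and 1844 CPM, Fas2 at 126 and 163 CPM and CadN at 15.5 and 153 CPM. The core cadherin partners alpha-Cat and p120ctn, catenins like Armadillo, had log2 fold changes of 0.19 and 0.07 and were not called (limma's adjusted p = 0.156 and 0.759).

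Among 11 apical and Par partners 1 rose and 2 fell, with a median log2 fold change of −0.04. Kibra (kibra), an upstream regulator of the Hippo pathway, rose from 459 and 459 to 598 and 582 CPM (1.28-fold, limma's adjusted p = 0.000882). The small GTPase genes Cdc42, whose product binds Par-6, and Rap1 fell by 0.33 and 0.31 on the log2 scale (limma's adjusted p = 0.0117 and 0.0105). Both fell out of the called set without wild-type library 2 (adjusted p = 0.108 and 0.0633), Cdc42 also without mutant library 3 (0.0570) and Rap1 without mutant library 2 (0.0652). Among the partners not called, Patj of the Crumbs complex and the Par complex kinase gene aPKC had log2 fold changes of 0.30 and −0.15 (limma's adjusted p = 0.345 and 0.398).

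Of 17 tested septate junction genes 1 rose and 0 fell, with a median log2 fold change of −0.10. The gene that rose was Atpalpha (1.26-fold, limma's adjusted p = 0.00132), the catalytic subunit of the sodium pump, at 621 and 664 CPM in wild type and 807 and 817 CPM in the mutant. It was at 562 CPM in wild-type library 1 but at 333 CPM in mutant library 1. Core septate genes such as cora and Nrx-IV had log2 fold changes of −0.08 and −0.15 (limma's adjusted p = 0.552 and 0.368). Of 6 tested basolateral and spectrin partners, limma and edgeR and DESeq2 called 0, and 2 passed an unadjusted p of 0.05.

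**Figure D3:**
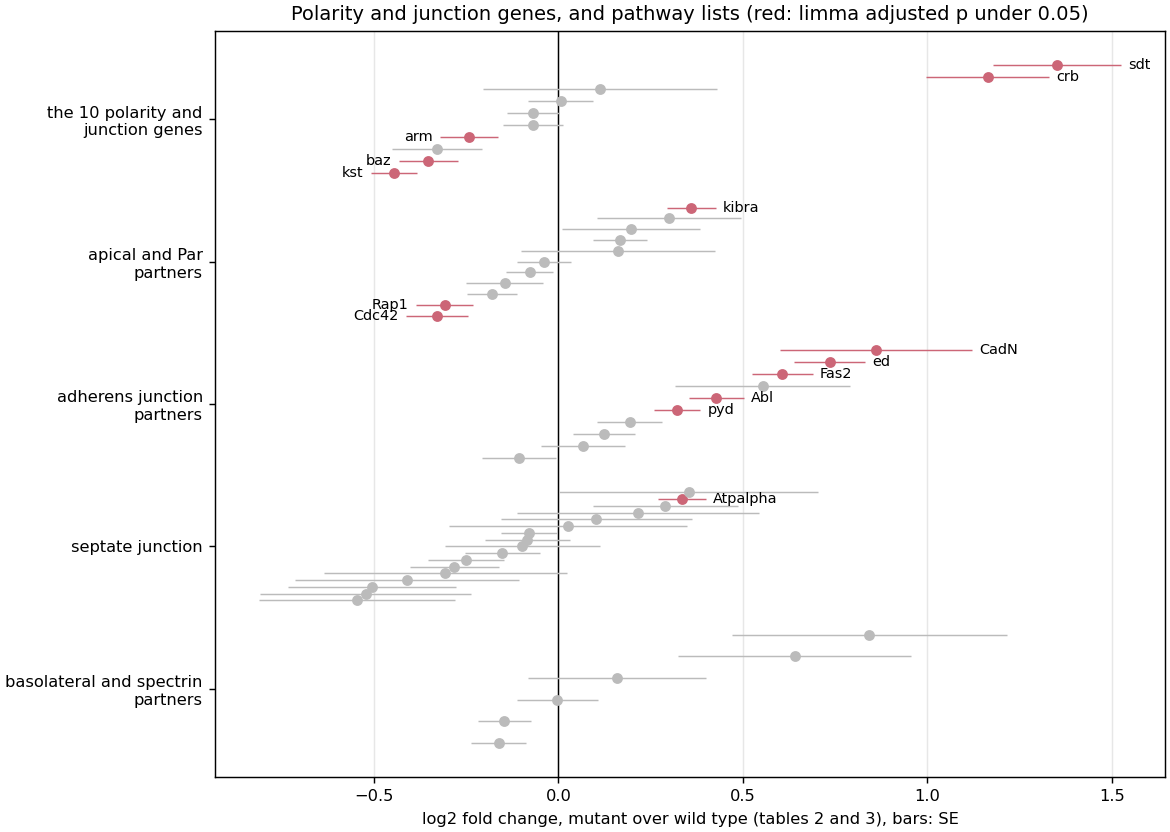
Log2 fold change of mutant over wild-type Beaf in libraries 2 and 3 for the 10 genes and 4 lists of other polarity and junction genes; each point is 1 gene, bars are SE, and red marks an adjusted p under 0.05 by limma. The adherens junction list has 5 red points, all to the right of 0, and the septate junction list 1 among 17.

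The genes whose levels followed the Crumbs pair most closely over the 6 Beaf libraries were found by Pearson's r of log2(CPM + 1) among 6547 genes. For sdt these were Syngr, axo, CG34056, CG31211 and shot, with r from 0.998 to 0.999. The spectraplakin gene shot, which encodes a linker of actin and microtubules, was the most abundant of them, at 538, 971 and 975 CPM in wild-type and 2647, 1767 and 1685 CPM in mutant libraries. For crb the 5 were Cht6, Hipk, Wdr81, CG13204 and na, with r from 0.997 to 0.998. Between sdt and crb r was 0.992, so crb ranked 39 in likeness to sdt and sdt ranked 25 in likeness to crb. These correlations share 6 libraries, 2 of which stand apart, and describe those libraries only.

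The second experiment asked what changes when CTCF, another insulator protein, is depleted. CTCF RNA was at 55.4 CPM in the control and 11.3 CPM in the knockdown, a 4.89-fold difference in the direction of the label. With 1 library each there is no replicate check and no p-value, and the intervals given cover counting error only. Reads not aligned made up 18.4% in the control and 45.1% in the knockdown, and what this does to the ratios was not tested. Karst was the one polarity gene with a large difference: kst was at 385 CPM in the control (4217 reads) and 173 CPM in the knockdown (1604 reads), 2.22-fold lower with a 95% exact binomial interval from 2.10 to 2.36. Of 6770 genes with at least 50 reads in the fuller library, 0.871% were at least 1.5-fold lower in the knockdown and 2.61% at least 1.5-fold higher (3.49% either way, beside 1 of the 10 genes), and kst ranked 16 among the falls. Armadillo was at 572 CPM in the control and 476 CPM in the knockdown, a log2 ratio of −0.26 with an interval from −0.32 to −0.21.

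The other 8 genes lay between log2 ratios of −0.16, for scrib, and 0.14, for dlg1. Stardust and Crumbs were at 54.0 and 42.4 CPM in the control and at 54.1 and 43.2 CPM in the knockdown, with log2 ratios of 0.00 and 0.03 and intervals from −0.17 to 0.18 and −0.17 to 0.22. Bazooka was at 47.0 CPM in the control and 46.8 CPM in the knockdown, and par-6 at 120 and 127 CPM. The median log2 ratio of the 10 genes was −0.00, beside 0.05 over the 6770 genes. None of the 9 pathway genes called in the Beaf comparison reached 1.5-fold in the knockdown, and the farthest was CadN at 0.31 on the log2 scale, with 79 and 83 reads and an interval from −0.15 to 0.78.

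**Figure D4:**
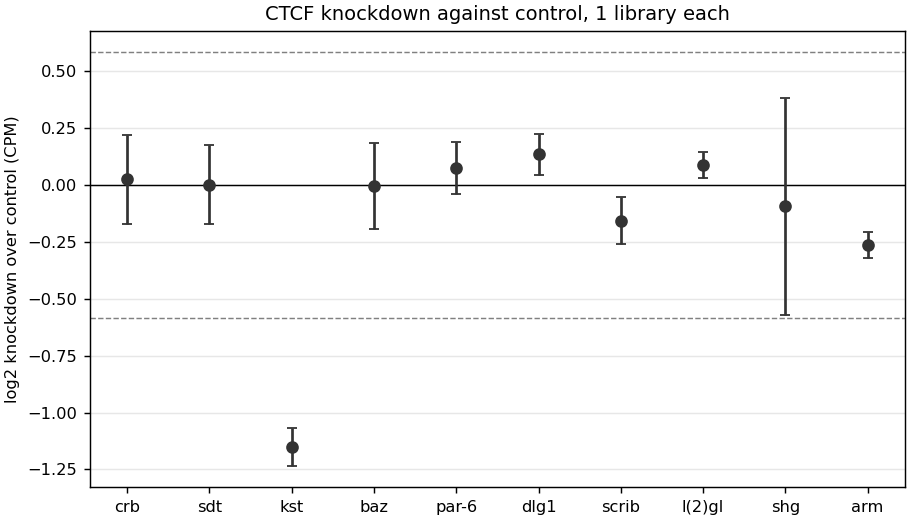
Log2 ratio of CPM in the CTCF knockdown library over its control for each of the 10 genes; bars are 95% exact binomial intervals of the reads, which cover counting error only, and dashed lines mark 1.5-fold. Only kst, at −1.15, lies beyond a dashed line.

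The genes beside kst lay near a ratio of 1 in the knockdown. The 3 measured protein-coding genes on either side of it in BDGP6.54, chosen after the value of kst was seen, had log2 ratios of knockdown over control from −0.17 to 0.09. Most genes lay that near, as the median absolute log2 ratio over the 6770 genes was 0.12. The nearest were CG14969, at 58.0 and 61.0 CPM, and Ythdc1, at 109.5 and 99.5 CPM in control and knockdown. In the Beaf comparison none of these 6 was called in libraries 2 and 3, where 14.7% of all genes were called. Their log2 fold changes ran from −0.31 to 0.31. The same held for the 6 genes around sdt, from −0.22 to 0.12, and the 6 around crb, from −0.13 to 0.01, among them Nab2, the nearest gene to crb, at −0.04 (limma's adjusted p = 0.910).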

How the data were processed

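RNA-seq tables of 8 S2 cell libraries were used. Per the submitters' processing notes the tools included HTSeq, BWA and CASAVA 1.8. No source used here gives the genome build, annotation or strand setting, and the labels' protocols state total RNA with no poly-A selection. The mutant and knockdown columns hold read counts as deposited. The wild-type and control columns hold a deposited signal of whole numbers, which in 3 of these 4 columns is, from the values, a read count times a constant for the column, then rounded. Undoing a constant of 1.234 left whole reads in 99.99% of the values above 0 of wild-type library 1 (81.0% if by chance), 1.237 did so in 100% for wild-type library 2 (80.8%) and 1.297 in 99.99% for the CTCF control (77.1%). No constant was found for wild-type library 3, which entered as deposited.

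The last 5 rows, of unassigned reads, were left out. Deposited values were scaled with TMM, filtered with filterByExpr and fitted with limma-trend (log2 CPM, prior count 2, two-sided, Benjamini-Hochberg adjustment over all genes at 0.05). The column names give the genotype but no replicate number. EdgeR, DESeq2 and the other alternatives used recovered reads or changed 1 setting. The fits were tried on simulated data in which no library stood apart. That trial does not bear on the fit to all 6 libraries, where the libraries numbered 1 did. In the CTCF comparison recovered reads were used, with at least 50 in the fuller library. Symbols matched 94.6% of genes. The 10 genes and all lists were chosen with earlier results of these data known. All 10 are named, and of the other lists at most 12 called genes by smallest adjusted p; 8 uncalled partners (alpha-Spec, Moe, Patj, aPKC, alpha-Cat, p120ctn, cora and Nrx-IV), the neighbouring genes and the genes of the closing observations were picked after their values were seen. Exact intervals came from scipy 1.17.1 under Python 3.11.15; DESeq2 was 1.42.0, edgeR 4.0.16 and limma 3.58.1, under R 4.3.3.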

Additional observations from a re-analysis of the deposited data

How the results depend on the processing

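The rises of sdt and crb and the fall of kst in libraries 2 and 3 were called under all 11 alternatives tried, 4 of which leave 1 genotype with a single library that is assumed to vary like the other genotype. The call of baz was lost with DESeq2 (adjusted p = 0.394), and that of arm with DESeq2 (0.701), without the filter on low values (0.0525) and without 3 of the 4 libraries. In libraries 2 and 3 limma called 975 of 6619 genes. DESeq2 called 180 of 6457, with 3 of the 10 genes and 2 of the pathway genes. Leaving out 1 library there gave log2 fold changes from 1.305 to 1.393 for sdt, 1.029 to 1.292 for crb and −0.4675 to −0.4294 for kst. With all 6 libraries DESeq2 called 220 of 6463 genes, 2 of them among the 10. Leaving out 1 library gave 0 to 471 genes and 0 to 3 of the 10, with 471 of 6732 genes called without mutant library 1. The direction turned for scrib with all 6 libraries (−0.0663 to 0.38 when 1 library was left out), and in libraries 2 and 3 for dlg1 (−0.0199 without the filter, −0.12 to 0.12 when 1 was left out) and shg (−0.19 to 0.41). None of these was called. Non-overlapping genes numbered 5 after TMM scaling and 6 to 8 when 1 library was left out. The share over all genes was not computed for these settings. Non-overlap is easier to reach for any gene with fewer libraries, so nothing is drawn from these counts. The cause of the changes between settings was not tested. Adding the table number as a replicate block, limma called 1230 genes in libraries 2 and 3 with the same 5 of the 10 and 10 pathway genes, alpha-Spec being added as lower, and 0 with all 6. Deviations from the genotype mean of 3 libraries correlated at −0.16, −0.12 and −0.08 within a table. The libraries numbered 1 stand apart and weigh most in these values, so they cannot show whether tables are pairs. The tables are not taken as pairs because the column names carry no replicate number. In the CTCF comparison kst alone passed 1.5-fold under each of 4 alternatives, 2-fold among them. In shg, libraries 2 and 3 held 13 to 19 reads each.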

Other observations

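The junction gene lists went in different directions in mutant library 1. Of 20 matched septate junction genes, 3 were highest there and 11 lowest. Of 10 adherens junction genes, 7 were highest and 2 lowest. These 10 summed to 3561.5 CPM, with pyd alone at 1844 CPM, against 1711 to 2522 CPM in the other 5 Beaf libraries. Of 11 apical and Par partners 2 were highest and 7 lowest, and of 7 basolateral and spectrin partners 3 and 3. Over all genes above 0 in a Beaf library, 52.9% were highest there and 25.2% lowest. The summed level of the septate genes, 1293 CPM, was below the 1579 to 1727 CPM of the other 5 Beaf libraries. Of that sum Atpalpha alone was at 333 CPM there, against 562 to 817 CPM in the other 5. Lower genes included the septate genes sinu, at 6.81 CPM against 11.7 to 19.0 CPM, and nrv2, at 30.9 CPM against 65.8 to 87.7 CPM, and the epithelial marker ovo, at 17.9 CPM against 47.9 to 105 CPM. Higher genes were picked for their size. Fas3, a septate junction adhesion gene that is also on the epithelial marker list, was at 143 CPM there. In the other Beaf libraries it was at 5.64 to 9.02 CPM. The epidermal transcription factor gene grh was at 73.0 CPM against 3.30 to 12.7 CPM, uif, an apical membrane protein gene, at 47.7 CPM against 2.51 to 5.18 CPM, and gukh, whose product binds Discs large, at 58.2 CPM against 3.13 to 9.07 CPM. The septate junction gene bark was at 23.5 CPM against 0 to 3.89 CPM. Of 9 neuronal markers 6 lay above every other Beaf library, near the 52.9% of all genes above 0 that did. Their summed level was 420 CPM against 73.0 to 163 CPM, with CadN at 153 CPM and brp at 130 CPM in that library. In that library 12268 genes had a value above 0, against 9070 to 9874 in the other 5.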
